A study of Homo sapiens with 36 samples.

Results

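The genes described here are 10 components and transcriptional targets of the insulin receptor, PI3K and FOXO axis, namely IRS1, IRS2, INSR, IGF1R, ERBB3, PIK3IP1, SESN1, CCNG2, FOXO1 and FOXO3. They were chosen by symbol, with earlier results of these data known. Shares of these genes called, set beside those of all genes, are therefore descriptions and not tests. Each symbol matched a single Ensembl gene identifier, and they are 10 of the 60675 genes of the count table. Insulin and insulin-like growth factors bind the receptors encoded by INSR and IGF1R, and the receptors signal through the adaptor proteins IRS1 and IRS2 to the lipid kinase PI3K and on to the kinase AKT. AKT phosphorylates the FOXO transcription factors and keeps them out of the nucleus, so that blocking PI3K lets FOXO proteins enter the nucleus and switch on their targets. Among the known FOXO targets are the receptor genes INSR and ERBB3 and the adaptor gene IRS2, through which cells restore growth factor signalling when PI3K or AKT is blocked, as well as CCNG2, SESN1 and PIK3IP1.

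RNA-seq was done on SW1783, an astrocytoma line, and HT29, a colorectal adenocarcinoma line, each grown in its own medium. Cells were treated for 24 h, and the 36 libraries fell into 12 groups of 3. In batch A of each line, 10 µM wortmannin, a covalent inhibitor of PI3K and the positive control of the study, was set against vehicle. In batch B, ACD, the extract in boiling water of the monkshood Aconitum carmichaeli Debeaux, at 500 µg/mL (high), 100 µg/mL (medium) or 20 µg/mL (low) was set against a vehicle of its own. The labels give the vehicle as 0.1% DMSO. Each kind of tumour was represented by 1 established line, neither line was edited, and ACD is a mixture of plant compounds. The values are RNA levels, and the activity of PI3K and AKT and the location of FOXO proteins were not measured.

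Library totals ranged from 18863863 to 26436867 counts in SW1783 and from 15941255 to 33866644 in HT29. A count of 0 allows up to 3 counts, or 0.113 to 0.159 CPM (counts scaled for library size) in SW1783 and 0.0886 to 0.188 CPM in HT29, which covers counting error only. HT29 libraries contained the epithelial markers EPCAM, CDH1, KRT20, VIL1 and CDX2. SW1783 libraries contained VIM, CD44 and COL1A2, whereas GFAP (at most 0.261 CPM) and S100B (at most 0.253 CPM), the defining markers of astrocytes, were at or near 0. CD44 was also present in HT29 (380 to 577 CPM), and GFAP was at most 0.416 CPM there. The share of counts on mitochondrial ribosomal RNA was 0.932% ± 0.0251 in the vehicle of batch B, 3.14% ± 0.164 with the low dose, 7.83% ± 0.199 with the medium dose and 5.93% ± 0.15 with the high dose in SW1783 (SD, n = 3). In HT29 it was 1.18% ± 0.0398, 1.09% ± 0.09, 2.10% ± 0.122 and 11.96% ± 0.634 in the same order. Fits scaled by library totals without mitochondrial genes are given below, and the part of this share in the results was otherwise not tested. Replicate 2 of the high dose in HT29 stood apart, with a chi-square per degree of freedom over genes of 70.8 and 71.5 against replicates 1 and 3 and of 10.1 between these. Vehicle libraries of batches A and B with the same replicate number differed by 1.53 to 1.64 on this measure in SW1783, against 2.04 to 3.12 between different numbers, and by 1.46 to 1.54 against 4.00 to 17.7 in HT29, so that the vehicles of both batches may not be independent cultures. In neither line was any of the 10 genes called between the vehicles of both batches (DESeq2, 0 of 10 also at an unadjusted p under 0.05). If the vehicles come from the same cultures, this comparison could not show a difference between the batches, and nothing is concluded from it.

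FOXO proteins bind DNA at a known motif, and promoter letters are shown for 4 genes called with wortmannin or ACD, so that windows with and without that motif can be compared. The windows run from 250 bases before to 50 bases after a RefSeq transcript start (GRCh38.p14), and 15 windows were found for 9 of the 10 genes. They were searched on both strands for GTAAACA, the core of the forkhead motif, and for CAAAACA, the core of the insulin response element, which end in the same letters (AAACA) but begin differently, so that the same bases cannot match both. GTAAACA occurred in 3.42% and CAAAACA in 4.92% of 35116 promoter windows, and either of them in 8.07%. A match was found in 2 of the 15 windows, that of IRS2 and a window of PIK3IP1. The IRS2 stretch lies at chr13:109786584-109786833 on the minus strand, directly before the transcript start, and the capitals mark CAAAACA read on the other strand, which begins 40 bases before the start.
IRS2: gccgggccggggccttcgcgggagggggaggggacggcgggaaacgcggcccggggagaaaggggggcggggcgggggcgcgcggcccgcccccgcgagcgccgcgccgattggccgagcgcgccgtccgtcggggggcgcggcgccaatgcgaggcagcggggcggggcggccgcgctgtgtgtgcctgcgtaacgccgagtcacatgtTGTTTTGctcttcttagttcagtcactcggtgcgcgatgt
The 30 bases of PIK3IP1 lie at chr22:31292454-31292483 on the minus strand, and the capitals mark GTAAACA read on the other strand, which begins at base 17 of the transcript.
PIK3IP1: taaagagaggcTGTTTACcagaacagcata
The windows of CCNG2 and INSR held neither motif. The 250 bases before the CCNG2 start are at chr4:77156957-77157206 on the plus strand, and those of INSR at chr19:7294415-7294664 on the minus strand.
CCNG2: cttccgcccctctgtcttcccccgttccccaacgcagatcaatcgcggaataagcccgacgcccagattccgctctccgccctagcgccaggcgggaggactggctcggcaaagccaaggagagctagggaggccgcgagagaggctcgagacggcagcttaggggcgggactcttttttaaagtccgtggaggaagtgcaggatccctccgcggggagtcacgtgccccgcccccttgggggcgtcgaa
INSR: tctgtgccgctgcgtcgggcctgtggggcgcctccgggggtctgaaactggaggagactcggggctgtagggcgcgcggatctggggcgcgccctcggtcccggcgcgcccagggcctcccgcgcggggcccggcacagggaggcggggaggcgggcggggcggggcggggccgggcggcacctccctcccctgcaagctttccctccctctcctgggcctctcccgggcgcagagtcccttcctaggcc
A match is a run of letters and not a site of binding, and a window without a match says nothing about binding elsewhere.

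In vehicle cells the genes covered a wide range of levels, given here as CPM per kb of exon in batch A. The length is that of all annotated exons of a gene and not of the transcripts expressed. The order of different genes on this scale is therefore approximate. FOXO3 (11.9 ± 0.359) and IRS1 (10.0 ± 0.314) were highest in SW1783, followed by FOXO1 (2.88 ± 0.144), CCNG2 (2.78 ± 0.0327), IGF1R (2.74 ± 0.131) and IRS2 (2.64 ± 0.345), which overlapped with each other. INSR (1.97 ± 0.0656), SESN1 (1.302 ± 0.0238) and PIK3IP1 (0.433 ± 0.0577) were lower without overlap between neighbours. ERBB3, the receptor for neuregulins that recruits PI3K directly, was at 18.8 ± 0.833 CPM per kb in HT29, the highest of the 10 genes there, and at 0.0121 ± 0.00803 in SW1783. The remaining order in HT29 was IRS1 (13.0 ± 1.95), FOXO3 (10.7 ± 1.15), IGF1R (7.19 ± 1.02), FOXO1 (5.39 ± 0.50), SESN1 (4.63 ± 0.234), CCNG2 (4.505 ± 0.283), IRS2 (3.35 ± 0.199), INSR (1.85 ± 0.155) and PIK3IP1 (0.333 ± 0.0412). IRS1 and FOXO3 overlapped in HT29, as did FOXO1, SESN1 and CCNG2 with each other. In SW1783 the raw counts of ERBB3 were 0 to 6 per library over all 18 libraries, at or near the floor, and no fold change is given for it in that line.

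**Figure D1:**
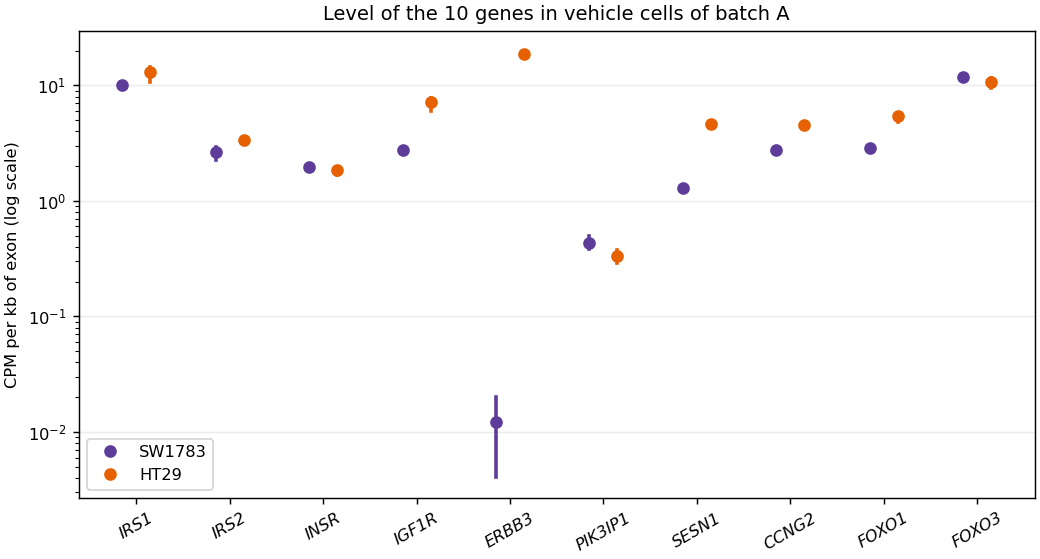
Levels of the 10 genes in vehicle cells of batch A, as CPM per kb of exon on a log axis, for SW1783 and HT29. Points are means of 3 libraries and bars run from the lowest to the highest library; ERBB3 was at 18.8 in HT29 and at 0.0121 in SW1783, while the INSR libraries of both lines overlap.

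With wortmannin the adaptor gene IRS2 and the receptor gene INSR were higher in both lines, PIK3IP1 rose in SW1783, and SESN1 and FOXO1 overlapped with the vehicle in both lines. A gene was called when its adjusted p (DESeq2, Wald test) was under 0.05 and its change over 1.5-fold. In SW1783 the called genes were IRS2 and PIK3IP1, 2 of the 9 genes tested, against 2.72% of all genes tested. In HT29 INSR was called, 1 of 10, against 2.65% of all genes. By adjusted p alone, 6 of the 9 genes passed in SW1783, 5 of them higher and FOXO3 lower, where 33.9% of all genes passed, and 4 of 10 passed in HT29, all 4 of them higher, where 18.7% of all genes passed. In a fit of all 18 libraries of HT29, IGF1R (adjusted p = 0.130) and ERBB3 (adjusted p = 0.210) did not pass, and ERBB3 also missed without wortmannin replicate 3 (adjusted p = 0.0526). The median log2 fold change of the tested genes was 0.28 in SW1783 and 0.18 in HT29, and that of all genes tested was -0.0055 and -0.0042.

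**Figure D2:**
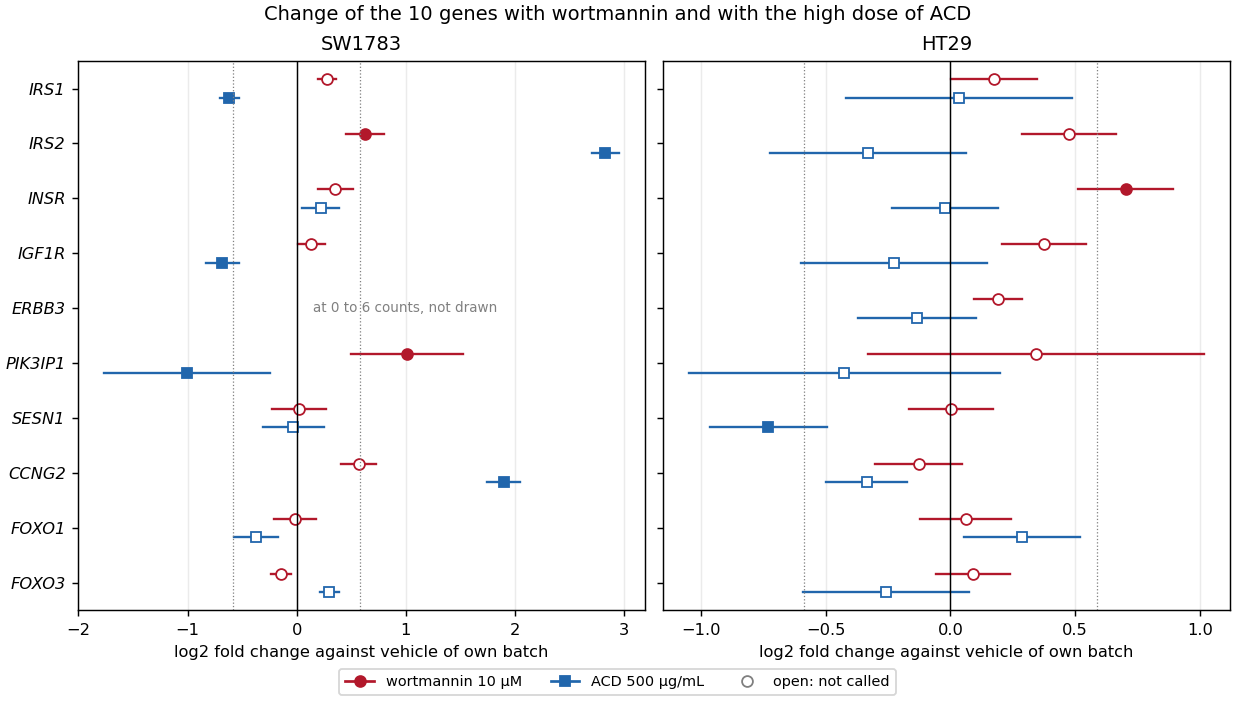
Log2 fold change of the 10 genes against the vehicle of the same batch, with 95% intervals from DESeq2, for wortmannin (circles) and the high dose of ACD (squares); filled symbols are called and dotted lines mark 1.5-fold. IRS2 lies at 0.62 with wortmannin and 2.83 with ACD in SW1783, PIK3IP1 at 1.01 and -1.01, and INSR reaches 0.70 with wortmannin in HT29; the x axes of the panels differ.

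The adaptor gene IRS2 had normalized counts of 749.5, 771.6 and 822.3 with wortmannin and of 436.3, 518.5 and 565.5 with vehicle in SW1783. All 3 treated libraries lay above all 3 vehicle libraries, and IRS2 rose 1.54-fold (log2 0.62 ± 0.0896 (SE), adjusted p = 5.66e-11, DESeq2). Vehicle replicate 1 was the lowest library, and without it the log2 fold change was 0.53, under the fold threshold. In HT29 the counts were 876.1, 758.9 and 853.3 against 616.2, 617.8 and 552.5, again without overlap. The change there was 1.39-fold (log2 0.48 ± 0.0961, adjusted p = 2.13e-05), under the fold threshold, and the response of IRS2 to wortmannin did not differ detectably between the lines (SW1783 minus HT29, log2 0.13 ± 0.134, adjusted p = 0.628).

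IRS1, the other widely expressed adaptor of this family, was at 2786.9, 2900.5 and 2908.4 with wortmannin against 2319.8, 2329.7 and 2453.3 in SW1783. The groups did not overlap, and the level was 1.21-fold higher (log2 0.28 ± 0.0416, adjusted p = 4.87e-10). In HT29 its values of 3151.2, 3180.8 and 3267.3 lay above the vehicle values of 2420.6, 3077.7 and 2994.3, of which replicate 1 was far below the others. The difference in HT29 did not pass (log2 0.17 ± 0.0883, adjusted p = 0.162).

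INSR, the insulin receptor, had counts of 712.8, 673.0 and 750.1 with wortmannin and of 406.3, 445.9 and 455.9 with vehicle in HT29. Every treated library was far above every vehicle library. INSR rose 1.63-fold in HT29 (log2 0.70 ± 0.0971, adjusted p = 4.46e-11). In SW1783 the counts of 622.2, 653.7 and 655.9 against 508.8, 514.8 and 485.0 did not overlap either and gave a change of 1.28-fold (log2 0.36 ± 0.0819, adjusted p = 9.50e-05). The response of INSR was smaller in SW1783 than in HT29 by 0.37 on the log2 scale (interaction -0.37 ± 0.107, adjusted p = 0.00744), a difference under 1.5-fold.

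IGF1R, the receptor of insulin-like growth factor 1, was at 2856.6, 2803.5 and 2841.2 with wortmannin against 1880.5, 2335.8 and 2323.4 in HT29, where it was 1.298-fold higher (log2 0.38 ± 0.0858, adjusted p = 0.000233). Vehicle replicate 1 was again the lowest library, and the groups did not overlap. In SW1783 the means of 990.5 ± 12.7 and 900.1 ± 38.9 (SD, n = 3) differed by log2 0.14 ± 0.0649 (adjusted p = 0.0920). ERBB3 was measurable in HT29 and had counts of 5403.8, 5441.5 and 5545.9 with wortmannin and of 4678.0, 4817.8 and 4861.8 with vehicle. The groups did not overlap, and the change was small at 1.14-fold (log2 0.19 ± 0.0497, adjusted p = 0.00170).

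PIK3IP1 encodes a transmembrane protein that binds and restrains PI3K, and per kb it was the least abundant of these genes apart from ERBB3 in SW1783. In SW1783 its normalized counts were 75.4, 87.4 and 72.7 with wortmannin and 34.6, 44.3 and 37.4 with vehicle, on raw counts of 80 to 86 and 31 to 48. The lowest treated library lay far above the highest vehicle library. PIK3IP1 rose 2.01-fold (log2 1.01 ± 0.261, adjusted p = 0.000618), the largest change among the 9 genes tested with wortmannin in this line. In HT29 the counts were 34.1, 38.1 and 32 against 31.9, 27.1 and 23.9. The lowest treated library was just above the highest vehicle library, and the difference did not pass (log2 0.34 ± 0.343, adjusted p = 0.554). A difference in the response between the lines was not detectable at this depth (log2 0.64 ± 0.358, adjusted p = 0.249).

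CCNG2, an atypical cyclin associated with cell cycle arrest, was at 686.4, 730.0 and 745.3 with wortmannin against 482.0, 489.0 and 485.0 in SW1783. The vehicle libraries were almost equal, and all treated libraries lay above them. The change of 1.48-fold (log2 0.57 ± 0.0807, adjusted p = 3.05e-11) was just under the threshold of 1.5-fold. It passed the threshold without wortmannin replicate 1 (log2 0.60) and when library totals without mitochondrial genes set the scale (log2 0.61). In HT29 CCNG2 was at 664.8, 638.5 and 696.7 with wortmannin against 712.0, 699.9 and 770.5 (log2 -0.13 ± 0.0887, adjusted p = 0.357), with all treated libraries below the vehicle libraries. The response of CCNG2 to wortmannin was the only one of the 10 interactions that was called, against 3.36% of all genes (SW1783 minus HT29, log2 0.67 ± 0.102, adjusted p = 2.70e-09). By adjusted p alone 3 of 10 interactions passed, where 2024 of the 13625 genes tested passed.

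SESN1, a sestrin that restrains mTORC1 and is a target of both p53 and FOXO, had overlapping groups in both lines, with log2 fold changes of 0.021 ± 0.128 in SW1783 and 0.0022 ± 0.0862 in HT29. The 95% intervals of these changes were -0.23 to 0.27 and -0.17 to 0.17. FOXO1 also overlapped in both lines (log2 -0.017 ± 0.0974 and 0.061 ± 0.0931). FOXO3 was at 1949.7, 1884.9 and 2002.0 against 2146.8, 2209.8 and 2094.1 in SW1783, lower by 0.14 ± 0.046 on the log2 scale (log2 -0.14, adjusted p = 0.00687, but 0.0773 without wortmannin replicate 2, 0.0867 without vehicle replicate 2 and 0.0548 with library totals), and at 1910 ± 23.4 against 1789 ± 148.4 in HT29 (log2 0.092 ± 0.0756, adjusted p = 0.450). The FOXO3 responses differed between the lines by log2 -0.26 ± 0.0826 (adjusted p = 0.0172), a difference that did not pass in 8 alternative fits (adjusted p 0.0511 to 0.162).

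**Figure D3:**
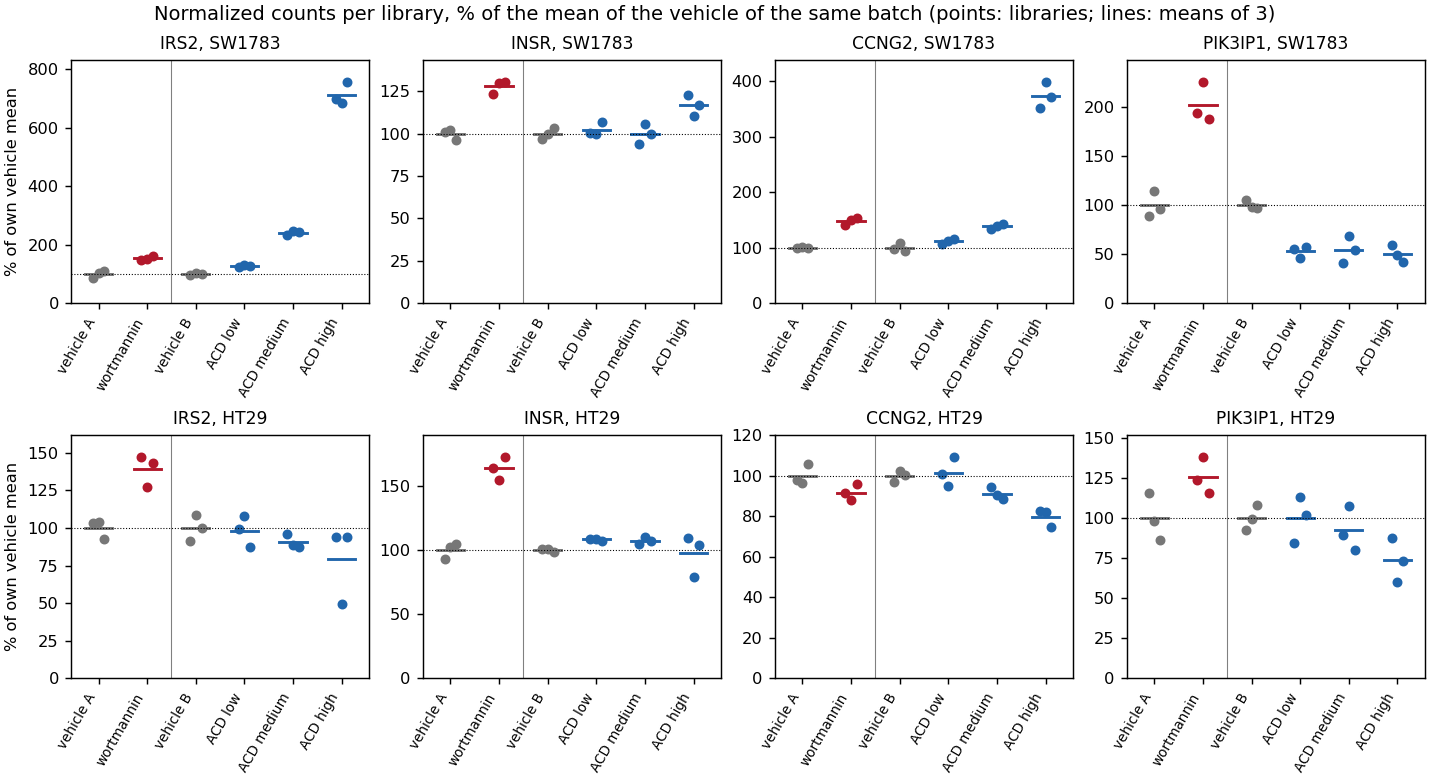
Normalized counts of IRS2, INSR, CCNG2 and PIK3IP1 in every library, as a percentage of the mean of the vehicle of the same batch, for SW1783 (upper row) and HT29 (lower row); points are libraries, horizontal lines are means of 3, and each y axis starts at 0. PIK3IP1 in SW1783 lies above its vehicle with wortmannin and below it at all 3 doses of ACD, and IRS2 climbs with the dose of ACD in SW1783 while 1 of the 3 HT29 libraries at the high dose lies far below the other 2.

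With the high dose of ACD in SW1783, IRS2 and CCNG2 rose and IRS1, IGF1R and PIK3IP1 fell. These were 5 of the 10 genes, against 18.2% of all genes tested, and 8 of 10 passed by adjusted p alone (4 in each direction), against 46.5%. At the medium dose IRS2 alone was called, 1 of the 9 genes tested (3.81% of all genes). At the low dose DESeq2 called 0 of 7 genes (0.118% of all genes), with 2 of the 10 at an unadjusted p under 0.05 and 0 called by edgeR. The 3 doses share their vehicle libraries.

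IRS2 was at 420.1, 439.8 and 437.1 in the vehicle of batch B in SW1783. It was at 540.6, 570.2 and 553.5 at the low dose, at 1010.8, 1059.6 and 1046.9 at the medium dose and at 3016.9, 2955.1 and 3269.0 at the high dose. No group overlapped with another, and the level followed the dose. The changes were 1.28-fold (log2 0.36 ± 0.0707, adjusted p = 5.75e-05), 2.40-fold (log2 1.27 ± 0.0664, adjusted p = 1.40e-78) and 7.12-fold (log2 2.83 ± 0.0629, with an adjusted p that the software gave as 0). Per length, IRS2 reached 17.2 ± 0.88 CPM per kb at the high dose, above the 13.3 ± 0.536 of FOXO3 and the 6.19 ± 0.142 of IRS1 in the same libraries.

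CCNG2 in SW1783 was at 396.6, 446.8 and 388.2 with vehicle, at 438.6, 459.0 and 471.9 at the low dose, at 549.4, 571.3 and 587.1 at the medium dose and at 1441.3, 1634.3 and 1521.8 at the high dose. Only the low dose overlapped with the vehicle. The high dose gave a 3.73-fold rise (log2 1.90 ± 0.076, adjusted p = 7.09e-136) and the medium dose a change of 1.38-fold (log2 0.47 ± 0.0809, adjusted p = 1.03e-07).

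IRS1 moved the other way. It was at 2059.7, 2109.7 and 2080.4 with vehicle, at 1770.0, 1778.2 and 1721.6 at the medium dose and at 1389.2, 1359.5 and 1329.1 at the high dose, without overlap between these groups. IRS1 fell by 0.62 ± 0.0442 on the log2 scale at the high dose (1.53-fold, adjusted p = 5.30e-43) and was lower by 0.25 ± 0.0429 at the medium dose (log2 -0.25, adjusted p = 1.44e-07). IGF1R fell from 750.1, 721.9 and 762.9 to 470.0, 487.4 and 434.0 at the high dose, by 0.68 ± 0.0777 on the log2 scale (1.61-fold, adjusted p = 1.34e-17). At the low dose IRS1 (log2 -0.054) and IGF1R (log2 -0.023) did not pass.

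PIK3IP1 in SW1783 had raw counts of 29 to 35 with vehicle and of 11 to 23 over the 9 ACD libraries. Its normalized counts were 32.8, 30.7 and 30.2 with vehicle, 17.3, 14.3 and 17.8 at the low dose, 12.8, 21.4 and 17 at the medium dose and 18.5, 15.3 and 13.1 at the high dose. All 9 ACD libraries lay below all 3 vehicle libraries, and the means of the doses were close to each other (16.5 ± 1.9, 17.05 ± 4.34 and 15.6 ± 2.73). The high dose was called as a fall of 2.01-fold (log2 -1.01 ± 0.387, adjusted p = 0.0221), the medium dose did not pass (log2 -0.86 ± 0.382, adjusted p = 0.0748), and DESeq2 gave no adjusted p at the low dose (log2 -0.92 ± 0.385, unadjusted p = 0.0165 from the Wald test). The call at the high dose was lost in 5 of the 6 fits that left out 1 library of the groups compared (adjusted p 0.0554 to 0.101), that is, without any of the vehicle libraries or without replicate 2 or 3 of the high dose.

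The receptor gene INSR was slightly higher at the high dose in SW1783 (499.4 ± 26.8 against 427.7 ± 14.2, log2 0.22 ± 0.0862, adjusted p = 0.0240), without overlap. It did not pass without replicate 1 or 3 of the high dose or without vehicle replicate 1 or 2 (adjusted p 0.0673 to 0.119), nor with library totals (0.0888). The transcription factor genes moved in opposite directions. FOXO1 was at 240.8, 267.6 and 264.7 against 342.3, 346.9 and 312.2 (log2 -0.37 ± 0.103, adjusted p = 0.000921), and FOXO3 at 2135.9, 2231.6 and 2316.8 against 1859.8, 1798.6 and 1772.4 (log2 0.30 ± 0.0452, adjusted p = 1.64e-10). Neither reached 1.5-fold, and SESN1 overlapped with the vehicle (log2 -0.029 ± 0.142, adjusted p = 0.898).

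**Figure D4:**
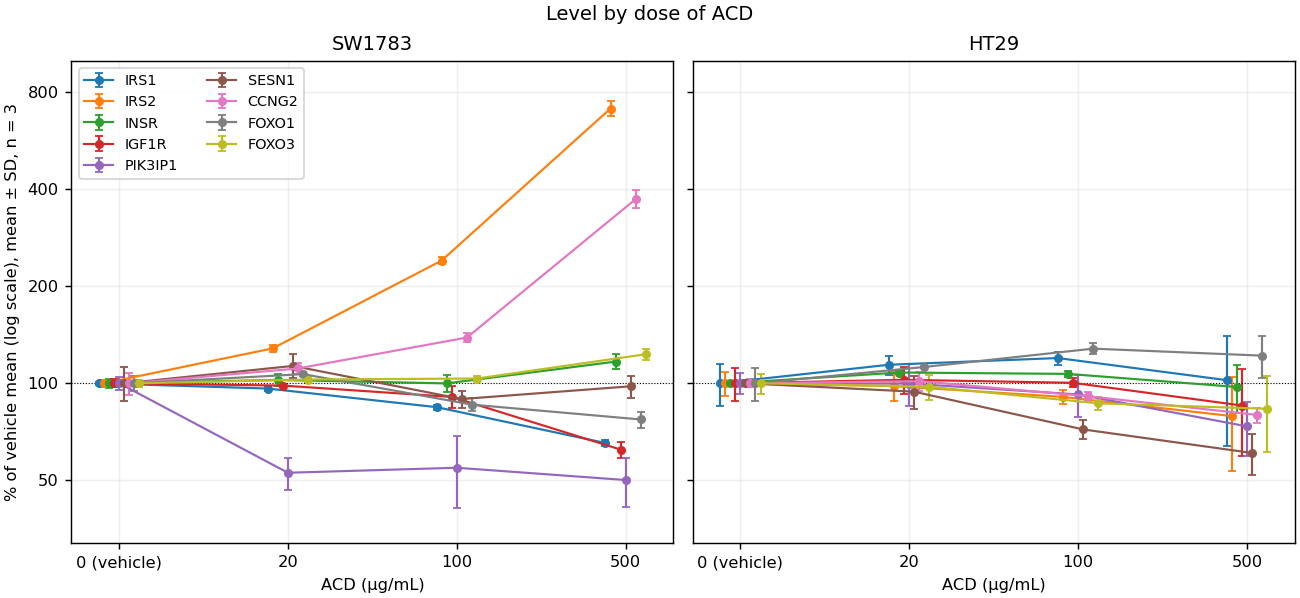
Levels of 9 genes by dose of ACD, as mean ± SD (n = 3) in percent of the vehicle mean of batch B on a log axis, with doses evenly spaced; ERBB3 is left out. In SW1783 IRS2 and CCNG2 climb with dose, IRS1 and IGF1R decline and PIK3IP1 is low from 20 µg/mL on; in HT29 the wide bars at 500 µg/mL come with replicate 2, and SESN1 lies lowest.

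In HT29 the high dose of ACD called 1 of the 10 genes, SESN1, which fell, against 2.92% of all genes, and 2 of 10 passed by adjusted p alone, both lower, against 7.62%. DESeq2 called 0 of 10 at the medium dose (0.827% of all genes, 2 of 10 at an unadjusted p under 0.05, 0 by edgeR) and 0 of 10 at the low dose (0.321% of all genes, 0 of 10 at an unadjusted p under 0.05, 0 by edgeR). SESN1 was at 835.4, 804.8 and 802.2 with vehicle, at 718.9, 712.0 and 869.0 at the low dose, at 573.5, 553.0 and 629.9 at the medium dose and at 451.9, 577.8 and 454.7 at the high dose. Medium and high doses lay below the vehicle without overlap. The fall was 1.66-fold at the high dose (log2 -0.73 ± 0.119, adjusted p = 9.94e-08), and the change at the medium dose was 1.39-fold (log2 -0.48 ± 0.117, adjusted p = 0.00487). The change at the medium dose did not pass with edgeR (adjusted p = 0.0624), nor without replicate 1 or 2 of either group (0.0611 to 0.0896). CCNG2, at 633.1, 629.1 and 574.2 against 744.0, 787.3 and 771.4, was lower by 0.33 ± 0.0828 on the log2 scale (log2 -0.33, adjusted p = 0.00177), which did not pass with only these 6 libraries in the fit (adjusted p = 0.0894).

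Replicate 2 of the high dose in HT29 was the lowest of the 3 for several genes. IRS1 was at 3970.9, 1839.5 and 3907.2, IRS2 at 581.8, 306.0 and 580.9, IGF1R at 2482.1, 1335.2 and 2266.8, ERBB3 at 5282.9, 3668.7 and 5135.5, and FOXO3 at 1846.8, 1118.1 and 1890.5, whereas SESN1 was highest in that library. For IRS2 the log2 fold change was -0.33 ± 0.20 (adjusted p = 0.399) with all libraries and -0.097 (adjusted p = 0.596) without replicate 2. For IRS1 it was 0.033 (adjusted p = 0.972) with all libraries and 0.31 (adjusted p = 0.0134) without replicate 2, and for FOXO1 it was 0.29 (adjusted p = 0.129) and 0.39 (adjusted p = 0.000476). SESN1 was called either way (log2 -0.84, adjusted p = 1.21e-13 without replicate 2), and it was the only one of the 10 genes called in either fit.

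The responses to the high dose differed between the lines for 5 of the 10 genes, against 14.6% of all genes. By adjusted p alone 6 of 10 passed, where 5089 of the 18379 genes tested passed. The difference, SW1783 minus HT29, was largest for IRS2 (log2 3.11 ± 0.206, adjusted p = 4.35e-49) and CCNG2 (log2 2.19 ± 0.102, adjusted p = 9.07e-99). SESN1 (0.66 ± 0.167, adjusted p = 0.000535) was also called with a more positive response in SW1783, and IRS1 (-0.69 ± 0.252, adjusted p = 0.0245) and FOXO1 (-0.70 ± 0.144, adjusted p = 1.12e-05) with a more negative one. FOXO3 passed by adjusted p alone (0.51 ± 0.18, adjusted p = 0.0186), and just missed without vehicle replicate 2 of HT29 (adjusted p = 0.0512). IRS1 lost the call without replicate 1 or 3 of the high dose or without vehicle replicate 1 of HT29 (adjusted p 0.0807 to 0.101), and SESN1 fell under the fold threshold without vehicle replicate 2 of SW1783 (log2 0.58). Calls were gained by IGF1R without replicate 2 of the high dose of HT29 (log2 -0.73, adjusted p = 7.15e-08, against -0.50 and 0.0701 with it) and by FOXO3 without replicate 1 (log2 0.62) or 3 (log2 0.64).

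Wortmannin and the high dose of ACD were compared as the difference of the responses in a fit of 18 libraries per line. Each response was taken against the vehicle of its own batch. The SE and adjusted p take the vehicles of both batches as independent, which may not hold. Wortmannin was given in batch A only and ACD in batch B only, so a difference between batches in the response cannot be told apart. In SW1783 this difference was called for 5 of the 9 genes tested, against 20.6% of all genes. PIK3IP1 (log2 2.02 ± 0.398, adjusted p = 1.64e-06), IRS1 (0.90 ± 0.0505, adjusted p = 7.96e-69) and IGF1R (0.82 ± 0.0835, adjusted p = 1.07e-21) responded more positively to wortmannin, and IRS2 (-2.21 ± 0.0867, adjusted p = 1.22e-140) and CCNG2 (-1.33 ± 0.0908, adjusted p = 7.49e-47) more positively to ACD. In HT29 the difference was called for 3 of 10, against 5.66% of all genes, namely IRS2 (0.80 ± 0.239, adjusted p = 0.0106), INSR (0.71 ± 0.132, adjusted p = 2.83e-06) and SESN1 (0.73 ± 0.143, adjusted p = 1.39e-05), each more positive with wortmannin. Without replicate 2 of the high dose, IRS2 in HT29 was at log2 0.57 (adjusted p = 0.000499), under the fold threshold. IGF1R (log2 0.60, adjusted p = 0.0714) was not called there, but was without replicate 1 or 3 of the high dose or without vehicle replicate 1 of batch B (adjusted p 0.00754 to 0.0406).

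A list of 32 other known FOXO targets, also chosen with earlier results of these data known, was examined beside these genes. Of the 32 listed, 31 matched the table. With wortmannin 4 of the 24 tested were called higher and 0 lower in SW1783, and 3 of 24 higher and 0 lower in HT29, with medians of log2 0.19 and 0.11. Of all genes 2.72% and 2.65% were called, in either direction, with medians of -0.0055 and -0.0042. The called genes with the largest changes were IGFBP1, a secreted binder of insulin-like growth factors (1655.2 ± 76.7 against 543.5 ± 24.1, 3.04-fold), TXNIP, which restrains glucose uptake (1.71-fold), and MXI1, an antagonist of MYC (1.69-fold), in SW1783, and TXNIP (1.68-fold) and the death ligand TNFSF10 (1.67-fold) in HT29. PDK4 (1.61-fold) in SW1783 and SELENOP (2.15-fold) in HT29 complete these counts, and both have low counts and were named after their values were seen. At the high dose of ACD 10 of 26 were called higher and 4 lower in SW1783 (median log2 0.44), where 18.2% of all genes were called with a median of -0.0096, among them the growth arrest gene GADD45A (5.25-fold), KLF6 (3.25-fold) and the cyclin-dependent kinase inhibitor CDKN1A (2.71-fold) higher and SESN3 (1.85-fold) and BNIP3 (1.55-fold) lower. The other two that were lower, TNFSF10 and DEPP1, were named after their values were seen. In HT29 it was 1 higher and 4 lower of 25 (median log2 -0.066), where 2.92% of all genes were called with a median of 0.0066, with CDKN1A (1.50-fold) higher and TXNIP (2.60-fold) and TNFSF10 (1.72-fold) lower, besides the less abundant SESN3 and DEPP1. TXNIP and TNFSF10 were thus called higher with wortmannin and lower with ACD in HT29. Passing by adjusted p alone with wortmannin were 15 higher and 4 lower in SW1783, and 5 higher and 1 lower in HT29. Of all genes 33.9% and 18.7% passed there. At the high dose of ACD 14 higher and 4 lower passed in SW1783, and 2 higher and 5 lower in HT29, where 46.5% and 7.62% of all genes passed.

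**Figure D5:**
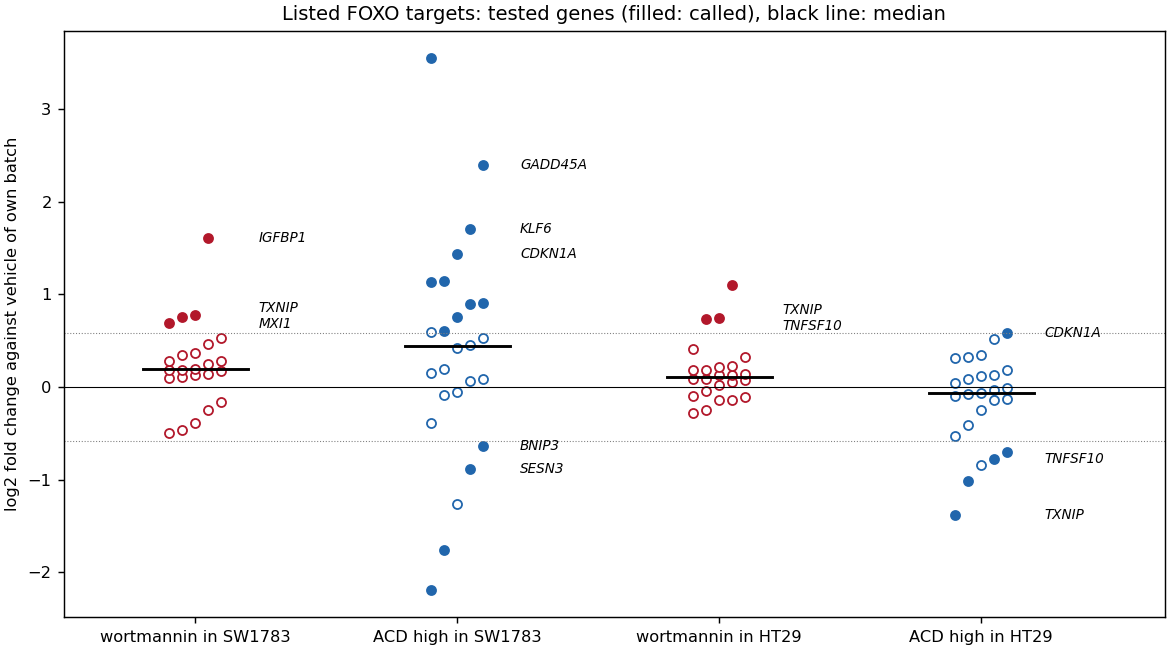
Log2 fold change of the tested genes of a list of other FOXO targets in 4 comparisons; filled points are called, black bars are medians (0.19, 0.44, 0.11 and -0.066 from left to right), and dotted lines mark 1.5-fold. All called genes lie above 0 with wortmannin, whereas called genes lie on both sides with ACD. Some genes under 1.5-fold that passed by adjusted p alone lie below 0 with wortmannin.

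Other lists were read in the same way, against the shares of all genes called, 2.72% in SW1783 and 2.65% in HT29 with wortmannin and 18.2% and 2.92% at the high dose of ACD. Of 44 genes of the PI3K, AKT and mTOR pathway, 1 of the 39 tested was called with wortmannin in each line, about the share of all genes. In HT29 it was IGF2, an insulin-like growth factor (1.65-fold higher), and in SW1783 it was DEPTOR, an inhibitor of mTOR, which was at 1.83-fold with wortmannin and 2.44-fold lower with the high dose of ACD, at low counts, and was named after its values were seen. At the high dose of ACD 5 of 40 were called higher and 4 lower in SW1783, a share near the 18.2% of all genes. The members called were EIF4EBP1, an inhibitor of cap-dependent translation (2.27-fold), RHEB, the activator of mTORC1 (1.67-fold), and RICTOR, a subunit of mTORC2 (1.56-fold), higher, besides TSC1 (1.55-fold) and GRB10 (1.54-fold), and the PI3K regulatory subunits PIK3R3 (2.14-fold) and PIK3R1 (2.05-fold), EIF4EBP2 (1.59-fold) and DEPTOR lower. In HT29 EIF4EBP1 (1.74-fold) and the receptor adaptor GRB10 (1.62-fold) were called higher, 2 of 40, and 0 lower, against 2.92% of all genes. A list of 17 genes held regulators of FOXO and also FOXO4 and FOXO6, which are FOXO genes themselves. Of the 17 genes, FOXO4 was called with wortmannin in SW1783 (338.6 ± 14.8 against 174.4 ± 6.16, 1.94-fold, adjusted p = 2.53e-13), 1 of 16 tested. In HT29 0 of 17 were called, and FOXO4 was at log2 0.39 ± 0.107 (adjusted p = 0.00327). No regulator proper was thus called with wortmannin in either line. With ACD in SW1783 STK4 (1.54-fold higher) and SKP2 (2.24-fold lower) were called, 2 of 17 where 18.2% of all genes were called, and 0 of 17 in HT29. Among 5 partners of ERBB3, the ligand gene NRG1 was called lower with wortmannin in SW1783 (1.53-fold), 1 of 3 tested, and against vehicle 0 of 2 were called with wortmannin in HT29, 0 of 4 at the high dose in SW1783 and 0 of 2 at the high dose in HT29. In wortmannin minus ACD in SW1783 1 of 4 partners was called, against 20.6% of all genes.

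SESN1 is also a p53 target, and 18 p53 targets were read beside it. With wortmannin 1 of 15 was called in SW1783, TP53INP1 (1.65-fold higher), and 0 of 16 in HT29, against 2.72% and 2.65% of all genes. At the high dose of ACD 6 of 17 were called higher and 2 lower in SW1783, where 18.2% of all genes were called, with GDF15 (112-fold), SESN2 (6.67-fold) and TNFRSF10B (4.72-fold) higher and ZMAT3 (1.63-fold) and TP53I3 (1.53-fold) lower. In HT29 3 of 16 were called higher and 0 lower, where 2.92% of all genes were called, namely SESN2 (2.17-fold), GDF15 (1.61-fold) and CDKN1A (1.50-fold). The 3 sestrin genes therefore moved apart in HT29 at the high dose, with SESN2 higher (640.0 ± 107.3 against 297.0 ± 25.2), SESN1 lower and SESN3 lower (33.8 ± 4.42 against 69.3 ± 13.9, adjusted p = 0.00913). Of the 10 paralogues of the 10 genes read for comparison, 1 of 6 tested was called with wortmannin in SW1783 and 0 of 7 in HT29. The gene called was FOXO4, already counted in the list of FOXO regulators above. Of all genes 2.72% and 2.65% were called there. At the high dose SESN2 was called higher and SESN3 lower in both lines, 2 of 7 in each. The share of all genes called at that dose was 18.2% in SW1783 and 2.92% in HT29. CCNG1, the paralogue of CCNG2, was at log2 0.079 ± 0.0503 (adjusted p = 0.200) at the high dose in SW1783, where CCNG2 rose.

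Over all 36 libraries, after the mean of each line was subtracted, the genes most like IRS2 among 9680 genes were SYT7 (Pearson r 0.968) and KDM7A (0.958), and those most like CCNG2 were PNRC1 (0.981) and SPRY2 (0.966). For INSR they were PARP14 (0.906) and HELZ2 (0.898), for IRS1 ZMIZ1 (0.974) and FAT1 (0.970), for IGF1R PRKCA (0.965) and GTF2I (0.945), and for PIK3IP1 SLC1A1 (0.891) and ETV1 (0.876). FOXO1 was most like IPO8 (0.872) and CHD8 (0.853), FOXO3 most like MYO10 (0.866) and SRGAP1 (0.866), SESN1 most like PGM2L1 (0.793) and MTCO1P12 (0.764), and ERBB3 most like CCDC186 (0.539) and ZFYVE27 (0.518). These are descriptions over libraries that share treatments and depth. The r of ERBB3 includes the SW1783 libraries, in which it was at or near the floor, so nothing is read from its likeness.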

How the data were processed

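Per the labels and the study's methods, the authors prepared directional mRNA libraries, trimmed them with Trim Galore, aligned them with STAR to GRCh38 (hg19 is written beside it in the methods) and quantified genes with RSEM. The submitters' processing notes name Trim Galore 0.6.5, STAR 2.7.3a and RSEM 1.3.3. The deposited table holds RSEM expected counts (estimated counts) of 60675 genes in 36 libraries, which the authors did not normalize. Expected counts were rounded here. IGF1R, ERBB3, SESN1 and FOXO1 overlap genes on the same strand, with which RSEM may share reads. RSEM's strand setting was not given in the sources used here, so reads of IRS2, IGF1R, PIK3IP1, SESN1, CCNG2, FOXO1 and FOXO3 cannot be told apart from those of overlapping genes on the opposite strand.

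DESeq2 1.42.0 (R 4.3.3, Wald test, two-sided, Benjamini-Hochberg over all genes tested) was fitted on 6 libraries per line in batch A, 12 in batch B, 18 for wortmannin minus ACD, and 12 and 24 for interactions. Normalized counts are divided by the size factors of their fit, so vehicle values of both batches are on different scales. Called means an adjusted p under 0.05 and a change over 1.5-fold. Values are mean ± SD or log2 ± SE. Levels per kb use the merged length of all GENCODE v44 exons of a gene. The fits were tested on simulated data. Members, gene lists and naming rules were chosen with earlier results of these data known. From each list, the called genes with the largest changes were named, up to 3 of each sign, if their normalized counts averaged at least 100 and the groups did not overlap. For CCNG1, SESN3 in HT29 and FOXO4 in HT29, values are given as paralogues. Labels do not say that replicates were separate cultures, so p-values measure only the spread between these samples.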

Additional observations from a re-analysis of the deposited data

Results flagged for a closer look

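The responses of 7 genes differed between the lines in 9 tests of the interaction (DESeq2, SW1783 minus HT29, log2 scale, adjusted p under 0.05, the size of change not being required). With wortmannin these were INSR (-0.37), CCNG2 (0.67) and FOXO3 (-0.26). With the high dose of ACD these were IRS1 (-0.69), IRS2 (3.11), SESN1 (0.66), CCNG2 (2.19), FOXO1 (-0.70) and FOXO3 (0.51). Of all genes tested, 2024 of 13625 passed with wortmannin and 5089 of 18379 with the high dose. The responses to the high dose in HT29 rest on 3 libraries of which replicate 2 stands apart. In alternative fits INSR with wortmannin (adjusted p up to 0.251), FOXO3 with wortmannin (up to 0.162), FOXO3 with ACD (up to 0.0512) and IRS1 with ACD (up to 0.101) did not pass.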

How the results depend on the processing

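Of 1690 alternative values for 120 gene results, 1667 kept their side of the threshold, 12 lost and 11 gained a call, and no called value changed sign. Only 24 of the 120 results were called in the reported fits, so most of these values had no call to lose. Calls were lost for IRS2 with wortmannin and PIK3IP1 with the high dose in SW1783. They were also lost for IRS1 and SESN1 in the ACD difference between lines and for IRS2 in wortmannin minus ACD in HT29. By adjusted p alone, 12 of 44 gene results that passed did not pass under at least 1 alternative. Besides those named in the report, PIK3IP1 at the medium dose in SW1783 was called by edgeR (adjusted p = 0.00978) and in a fit of all 18 libraries of the line (adjusted p = 0.0186), so that 2 of the 10 genes were then called in place of 1, and IGF1R in wortmannin minus ACD in HT29 was called with library totals (adjusted p = 0.0464). FOXO1 in wortmannin minus ACD in SW1783 did not pass without replicate 1 of the high dose (adjusted p = 0.0548). By the rule used here, replicate numbers did not pair treated with vehicle samples (correlations of same-numbered deviations from -0.459 to 0.326, never over 0.1 in all 3 pairs, and in no comparison did every sample correlate best with its own number). With 3 libraries per group this rule cannot show that there was no pairing, and same-numbered vehicles of both batches were alike. The replicate block removed the call of PIK3IP1 at the high dose in SW1783 (adjusted p = 0.0561) and changed no other call of the 10 genes. By adjusted p alone it also removed INSR (0.251) and FOXO3 (0.162) from the wortmannin difference, FOXO3 from wortmannin in SW1783 (0.0970) and INSR from the high dose in SW1783 (0.0551), while among all genes it gave 201 calls in place of 362 for wortmannin in HT29 and 272 in place of 458 for its difference between lines.

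Without the fold threshold the genes called were 6, 8, 3 and 1 for wortmannin and the high, medium and low doses in SW1783, 4, 2 and 1 for wortmannin and the high and medium doses in HT29, and 3 for the wortmannin difference. All genes called then numbered 4730, 9040, 4157 and 306 in SW1783, 2559, 1253, 344 and 103 in HT29, 2024 and 5089 for the differences between lines, and 8644 (SW1783) and 1982 (HT29) for wortmannin minus ACD. Among all genes edgeR called 687 in place of 379 for wortmannin, 809 in place of 537 for the medium and 30 in place of 11 for the low dose in SW1783, and 18 in place of 51 for the low dose in HT29. The low dose gave 20 calls with the low count filter and 6 with only the groups compared in SW1783, and 78 with all 18 libraries in HT29, and the high dose in HT29 gave 299 in place of 480 with only the groups compared. With library totals without mitochondrial genes, the share of all called genes that were higher moved from 63.9% to 74.6% for wortmannin in SW1783, from 72.4% to 86.1% for wortmannin in HT29 and from 65.1% to 82.5% for wortmannin minus ACD in HT29, and without the fold threshold it was 40.7% for wortmannin in SW1783 and 40.8% in HT29. Leaving out 1 library each gave 1 to 3 of the 10 genes for wortmannin in SW1783, and among all genes 6 to 13 for the low dose in SW1783, 88 to 124 for the medium and 26 to 50 for the low dose in HT29. Causes of these shifts were not tested. PIK3IP1 in both lines and ERBB3 in SW1783 rest on few counts.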
